A study of Homo sapiens with 4 samples.

Results

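ZNF217 peaks that lay at promoters in the leukemia line MV4-11 and had no counterpart in the line U937 were described here, as mapped by CUT&Tag, which cuts and tags chromatin at sites bound by an antibody. A peak was taken when its midpoint fell within 1 kb of the transcription start site (TSS) of a protein-coding transcript in GENCODE 44 on chromosomes 1 to 22 and X. It was dropped when it overlapped any U937 peak by 1 bp, or when its midpoint lay that close to TSSs of 2 genes on opposite strands. This left 3267 MV4-11-only promoter peaks of 60156 deposited peaks in both lines, of which 37635 were from MV4-11 and 22521 from U937. They made up 31.8% of the 10286 MV4-11 peaks at such single promoters, beside 59.6% of all 36356 MV4-11 peaks on these chromosomes that had no U937 peak. The peaks were chosen by position and by the absence of a U937 peak, which is therefore not a finding.

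The study placed ZNF217 in a transcriptional circuit of acute myeloid leukemia (AML). Both groups were untreated human AML lines of monocytic character, with 1 ZNF217 library each, so no test between the lines was possible. MV4-11 carries a KMT2A fusion, the product of a rearranged chromatin regulator gene, and U937 carries a PICALM fusion. The IgG libraries of both lines are not analysed here.

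ZNF217 is a zinc finger protein known to bind DNA and to work with corepressor complexes that hold CtBP, CoREST and the demethylase LSD1. Promoters of genes used in every cell are mostly rich in CpG dinucleotides and depend little on tissue-restricted factors, whereas many promoters of blood cell genes are poor in CpG and depend on factors such as PU.1, C/EBP and RUNX1. Many genes also have internal or alternative TSSs, from which shorter or different transcripts start. The TSS of each gene's canonical transcript was called its main TSS here, and every other protein-coding TSS internal.

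The peak lists gave positions on hg38 with no score or read count, so depth was unknown and peak width was the only measure of extent. The narrowest peak was 283 bp wide in MV4-11 and 330 bp in U937, and 329 MV4-11-only promoter peaks were narrower than any U937 peak. Of 11 markers of myeloid and monocytic character, 9 had a promoter peak in MV4-11 and 4 in U937. CD33, CD68, ITGAM and SPI1 had one in both lines. MPO, CD14, CEBPA, CSF1R and CD34 had an MV4-11-only peak and none in U937, and LYZ and KIT had no promoter peak in either.

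Stretches of the reference genome (hg38) inside 9 of these peaks are shown because they cover both kinds of promoter that the results turn on. The first 6 are myeloid or lymphoid effector genes with few CpG dinucleotides, and the last 3 are regulators with many. Each runs 5′ to 3′ on the gene's strand, begins 200 bases before the main TSS and stops before any annotated exon. Capitals mark matches, on either strand, to any of the 21 consensus words searched.
PRTN3, chr19:840799-840998, plus strand: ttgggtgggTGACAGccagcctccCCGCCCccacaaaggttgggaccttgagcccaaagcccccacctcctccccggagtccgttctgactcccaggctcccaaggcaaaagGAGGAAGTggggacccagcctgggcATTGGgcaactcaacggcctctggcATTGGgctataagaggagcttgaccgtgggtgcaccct
ELANE, chr19:852103-852208, plus strand: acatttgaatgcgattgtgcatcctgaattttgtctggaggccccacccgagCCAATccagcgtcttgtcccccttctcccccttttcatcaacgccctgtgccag
AZU1, chr19:827637-827836, plus strand: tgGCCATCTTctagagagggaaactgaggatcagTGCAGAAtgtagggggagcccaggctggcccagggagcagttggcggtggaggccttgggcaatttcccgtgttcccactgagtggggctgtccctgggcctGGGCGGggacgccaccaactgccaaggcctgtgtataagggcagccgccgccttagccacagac
MPO, chr17:58280936-58281135, minus strand: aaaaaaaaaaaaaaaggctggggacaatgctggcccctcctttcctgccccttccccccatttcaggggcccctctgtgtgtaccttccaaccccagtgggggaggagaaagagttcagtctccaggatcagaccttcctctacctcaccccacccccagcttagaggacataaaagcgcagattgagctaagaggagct
TLR9, chr3:52225646-52225845, minus strand: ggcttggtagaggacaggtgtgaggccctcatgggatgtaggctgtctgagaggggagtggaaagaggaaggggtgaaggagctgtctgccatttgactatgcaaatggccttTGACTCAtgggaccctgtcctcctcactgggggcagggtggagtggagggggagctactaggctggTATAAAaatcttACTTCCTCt
CD38, chr4:15778128-15778274, plus strand: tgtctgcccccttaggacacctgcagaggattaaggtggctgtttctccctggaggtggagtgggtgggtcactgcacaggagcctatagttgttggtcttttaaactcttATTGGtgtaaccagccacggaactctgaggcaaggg
CEBPA, chr19:33302535-33302734, minus strand: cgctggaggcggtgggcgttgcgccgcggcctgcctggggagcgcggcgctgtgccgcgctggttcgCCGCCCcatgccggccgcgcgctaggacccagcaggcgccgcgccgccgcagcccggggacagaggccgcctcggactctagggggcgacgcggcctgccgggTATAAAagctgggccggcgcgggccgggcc
KLF2, chr19:16324626-16324825, plus strand: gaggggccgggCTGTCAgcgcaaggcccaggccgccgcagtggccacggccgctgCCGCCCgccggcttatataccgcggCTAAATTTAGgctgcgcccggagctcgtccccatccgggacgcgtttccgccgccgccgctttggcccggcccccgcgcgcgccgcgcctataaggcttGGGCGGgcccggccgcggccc
FLT3, chr13:28100593-28100776, minus strand: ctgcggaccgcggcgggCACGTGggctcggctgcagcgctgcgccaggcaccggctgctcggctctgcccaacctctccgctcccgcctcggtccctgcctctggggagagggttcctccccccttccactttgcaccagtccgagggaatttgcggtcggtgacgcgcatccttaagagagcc
The PRTN3 stretch held the PU.1 word GAGGAAGT, a word present in 2.51% of the windows from 250 bp before to 50 bp after all main TSSs. The TLR9 stretch held the PU.1 word, the AP-1 word TGANTCA (5.45% of all windows) and TATAAA (9.67%). No word matched in MPO, whose 200 bases held 1 CpG dinucleotide. By contrast, the CEBPA and KLF2 stretches held 33 and 32 CpG dinucleotides. Both held the SP word GGGCGG, which was in 61.6% of all windows. The PRTN3 and AZU1 stretches, with few CpG dinucleotides, held that word too, and the FLT3 stretch did not. TATAAA was in the CEBPA stretch as well. The KLF2 stretch also had a MEF2 word and the FLT3 stretch the E-box CACGTG. Such matches describe the letters only.

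The MV4-11-only peaks fell on both kinds of TSS. A main TSS was in reach of 2063 peaks, or 63.1% (Wilson 95% interval 61.5 to 64.8), and only an internal TSS of the other 1204. Among the 7019 MV4-11 peaks at single promoters that U937 shared, 88.4% (87.7 to 89.2) were at a main TSS, a difference of -25.3 percentage points (-27.1 to -23.5). U937-only promoter peaks, chosen the same way in the other line, numbered 865, with 65.2% (62 to 68.3) at a main TSS. All such intervals cover counting error only.

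MV4-11-only peaks were narrower than shared ones, as were U937-only peaks. Their median width was 618 bp at main and 527 bp at internal TSSs, against 1091 and 1020 bp for shared peaks and 554 and 485 bp for U937-only peaks. Of the peaks at main TSSs, 1627 were at least 400 bp wide (78.9%), as were 872 of those at internal TSSs (72.4%). With that minimum, 2499 peaks remained, 27.0% of the 9241 MV4-11 peaks of that width at single promoters. The share at a main TSS was then 65.1% (63.2 to 67.0).

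**Figure D1:**
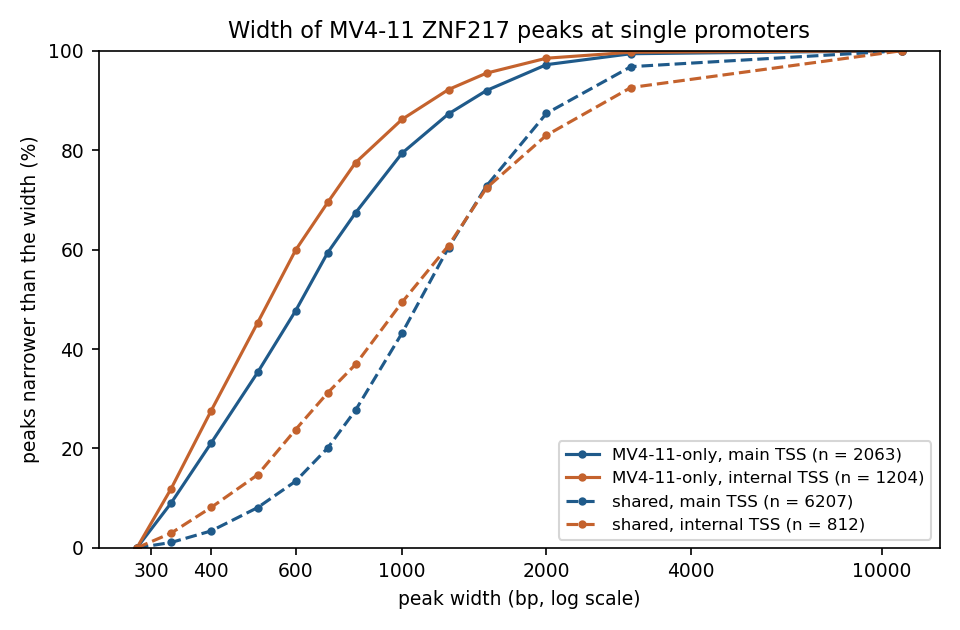
Cumulative share of MV4-11 peaks at single promoters (percent, y axis) against peak width (bp, log scale, x axis), for MV4-11-only (solid) and shared (dashed) peaks at main and internal TSSs. Both solid curves lie to the left of the dashed ones, with medians of 618 and 527 bp against 1091 and 1020 bp.

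Within every class of width, a peak at an internal TSS was missing from U937 more often than one at a main TSS. Among peaks narrower than 400 bp, 67.4% (63.7 to 70.9) of 647 at main TSSs and 83.4% (79.4 to 86.7) of 398 at internal TSSs had no U937 peak. In the widest class, 1000 bp or more, the shares were 10.8% (9.85 to 11.8) of 3953 and 28.8% (25.2 to 32.6) of 577. Since the rule uses this absence, these shares are a description.

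**Figure D2:**
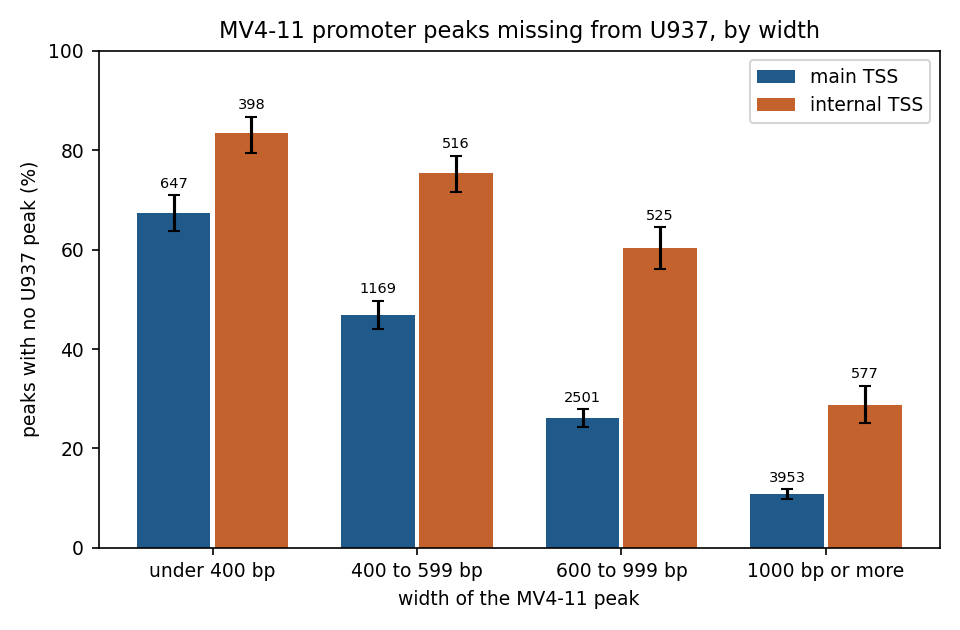
Share of MV4-11 single-promoter peaks with no U937 peak (percent, y axis) by width class (x axis) and kind of TSS. Bars are shares, whiskers Wilson 95% intervals and the numbers above them the peaks in each class. The share falls from 67.4% to 10.8% at main TSSs and from 83.4% to 28.8% at internal TSSs.

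Peaks lay on both sides of each limit of the definition. The 90th percentile of the distance from midpoint to TSS was 814 bp over all members and 892 bp over those at internal TSSs. The members nearest to the 1 kb limit were at BCL6B (1000 bp from the TSS), PRAC2 (1000 bp) and, 1 bp nearer, APC2, and those just beyond it were at IL23A (1002 bp), HUNK (1002 bp) and LMNA (1003 bp). The smallest distances to a U937 peak were 1 bp at LONP1, 9 bp at LSP1 and 11 bp at SNTB2, while the smallest overlaps among shared peaks were 1 bp at HELZ, 2 bp at TGFB3 and 3 bp at SIAH1. In all, 25 members had a U937 peak less than 100 bp away, and 51 shared peaks overlapped by less than 100 bp. As the lists do not state whether a start is counted from 0 or 1, the cases at 1 bp could fall on either side.

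The widest MV4-11-only peaks at main TSSs lay at genes of varied function. The first, at chr5:179791769-179796877, was 5108 bp wide and centred in an intron 337 bp into LTC4S, the synthase of leukotriene C4, a mediator made by myeloid cells. TYMP, thymidine phosphorylase, had a peak of 4694 bp at chr22:50528030-50532724, centred 365 bp before the TSS with a CpG-rich centre and a U937 peak 1057 bp away. A peak of 4107 bp covered WFIKKN1, a secreted protein with protease inhibitor domains. IGF2BP2, an RNA-binding protein, had one of 3699 bp, and no U937 peak was within 110222 bp of it. RCOR2, a CoREST family corepressor and so of the class of proteins that work with ZNF217, had a peak of 3217 bp. Peaks of 3656 bp at WBP1, 3606 bp at ENSG00000284691, 3570 bp at TONSL, which acts at damaged replication forks, 3226 bp at LRRC24 and 3098 bp at BCL7C, a subunit of SWI/SNF remodelling complexes, completed the 10 widest. No gene among the 10 other than TYMP had a U937 peak within 1 kb of any of its TSSs.

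The widest peaks at internal TSSs were mostly inside genes. DIPK1B had a peak of 5062 bp at an internal TSS, 9212 bp downstream of its main TSS, where neither line had a peak. METRN, a secreted neurotrophic protein, had one of 3545 bp, 1423 bp downstream of its main TSS. At IQSEC1, an exchange factor for ARF GTPases, the peak was 3507 bp wide and lay 58453 bp downstream, and at DOCK6, an exchange factor for RAC and CDC42, it was 2545 bp wide and 52928 bp downstream. The main TSSs of IQSEC1 and DOCK6 had an MV4-11-only peak as well. The METRN peak was wide enough to reach its own main TSS, so a second peak there was not established. MRTFA, a coactivator of SRF, instead had a shared peak at the main TSS, 200480 bp from its MV4-11-only peak of 2597 bp. ISYNA1, inositol-3-phosphate synthase, had an MV4-11-only peak of 3219 bp, 1476 bp from its main TSS. The MV4-11 peak at that main TSS met a U937 peak, but no U937 peak lay within 1 kb of any TSS of ISYNA1.

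At main TSSs the gene as a whole mostly lacked a U937 promoter peak, and at internal TSSs it mostly did not. No U937 peak overlapped 1 kb on either side of any TSS of the gene for 82.1% (80.4 to 83.7) of the peaks at main TSSs. The corresponding share at internal TSSs was 35.2% (32.6 to 38). Of the 1204 peaks at internal TSSs, 680 (56.5%, 53.7 to 59.3) belonged to a gene whose main TSS carried a shared peak, which may meet the U937 peak outside that window, 265 (22%) to one with an MV4-11-only peak there, and 259 (21.5%) to one with no MV4-11 peak there. An internal peak whose own edge lay within 1 kb of the main TSS counted as the MV4-11-only peak there. The 265 therefore need not all have a second peak at the main TSS. The midpoints of the 1204 peaks lay a median of 6558 bp from the main TSS (quartiles 2436 and 23215 bp), and 65.7% (63.0 to 68.3) were in an intron. The nearest U937 peak was 50 kb or more away for 29.0% (27.1 to 31.0) of the peaks at main TSSs and 11.1% (9.48 to 13.0) of those at internal TSSs. At main TSSs 63.0% (60.9 to 65.1) of midpoints were within 250 bp of the TSS, against 76.2% (75.1 to 77.3) for shared peaks.

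By gene, 2852 of 19626 protein-coding genes (14.5%) had an MV4-11-only peak at some TSS and 2005 (10.2%) at the main TSS. For 1645 genes (8.38%) an MV4-11-only peak had its midpoint within 1 kb of the main TSS and no U937 peak was within 1 kb of any TSS. These were 14.6% of the 11268 genes with any MV4-11 promoter peak. With peaks of at least 400 bp, 2267 genes (11.6%) had one. These shares are the background for the 37 gene lists below, whose intervals are exact (Clopper-Pearson, 95%). The lists were drawn up with results of these data known, and no list was tested. A gene with more TSSs has more places for a peak, and the part of that in the shares for any TSS was not tested. Lists also differed in how many genes had any MV4-11 promoter peak. Among those genes only, the share that compares with the 14.6% was 13.8% (3.89 to 31.7) for myeloid transcription factors. It was 16.1% (5.45 to 33.7) for granule and lysosome genes and the same for interferon-stimulated genes. For surface antigens targeted in AML it was 36.4% (17.2 to 59.3).

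Genes of myeloid granule proteins included a cluster of neighbours. Of 40 granule and lysosome genes, 10 (25%, 12.7 to 41.2) had an MV4-11-only peak, 8 of them at the main TSS. AZU1, PRTN3 and ELANE, which encode azurocidin, proteinase 3 and neutrophil elastase, are neighbours near the end of chromosome 19, and all of them had one. The PRTN3 peak (chr19:838943-841303) was 2360 bp wide, the ELANE peak (chr19:851945-853931) 1986 bp and the AZU1 peak (chr19:827464-828402) 938 bp. The nearest U937 peak was 13527, 5784 and 2048 bp away, and only AZU1 had a U937 promoter peak at some TSS. MPO, myeloperoxidase, had a pair of peaks at its main TSS on chromosome 17. They were 1498 bp and 297 bp wide, centred 668 bp before and 695 bp after the TSS, with the nearest U937 peak 45348 bp from the wider one. CD63, a lysosomal membrane protein, and GRN, progranulin, had narrow internal peaks (321 and 455 bp) beside a shared peak at the main TSS.

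Among 33 myeloid transcription factors, 8 (24.2%, 11.1 to 42.3) had an MV4-11-only peak and 6 had it at the main TSS. CEBPA, which drives granulocyte and monocyte differentiation, had a CpG-rich peak of 1049 bp centred 127 bp before its TSS, with a U937 peak 2563 bp away. CEBPD, another C/EBP factor, had a peak of 1828 bp and KLF2, a regulator of monocyte quiescence, one of 799 bp. Neither CEBPA, CEBPD nor KLF2 had a U937 promoter peak. IRF8, required for monocyte and dendritic cell fate, had a peak of 645 bp centred 228 bp before the TSS, but U937 had a peak elsewhere at its promoters. MYB and IKZF1, both regulators of blood progenitors, carried only internal peaks (387 and 912 bp), 4791 and 4105 bp from main TSSs that had a shared peak.

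The KMT2A fusion program, genes linked to leukemias with that fusion, had 9 of 24 genes with an MV4-11-only peak (37.5%, 18.8 to 59.4), 4 of them at the main TSS (16.7%, 4.74 to 37.4). Any MV4-11 promoter peak was present at 20 of the 24 (83.3%), against 57.4% of all genes. Of these 20, 3 (15.0%, 3.21 to 37.9) had an MV4-11-only peak at the main TSS and no U937 promoter peak. Among all genes with an MV4-11 promoter peak that share was 14.6%. FLT3, the receptor tyrosine kinase, had a peak of 1527 bp at chr13:28099589-28101116, centred 224 bp into the gene and 6147 bp from the nearest U937 peak. JMJD1C, a histone demethylase family protein, had one of 1585 bp with no U937 peak within 203465 bp, and IKZF2, an Ikaros family factor, one of 734 bp. The PBX3 peak of 365 bp was 738 bp from a U937 peak. MEF2C had a pair of internal peaks (458 and 446 bp), LMO2 one of 512 bp and MBNL1 a pair (341 and 1305 bp). The main TSSs of MEF2C, LMO2 and MBNL1 all had shared peaks. HOX clusters, whose A genes are part of the same program, had 1 of 39 genes, HOXB4, with a peak of 1255 bp.

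Receptors and cell surface antigens had some of the higher shares. Surface antigens targeted in AML had 13 of 32 genes (40.6%, 23.7 to 59.4), 10 of them at the main TSS (31.2%, 16.1 to 50). Of these 10, 8 had no U937 promoter peak. CD38, an ectoenzyme that hydrolyses NAD, had a peak of 1611 bp at chr4:15777919-15779530, and the nearest U937 peak was 74305 bp away. CD70, a ligand of the TNF family, had one of 752 bp. IL3RA, the alpha chain of the interleukin-3 receptor, had a peak of 624 bp centred 66 bp before its TSS and no U937 peak within 44483 bp. CD34, a progenitor antigen, had only an internal peak of 531 bp, 20517 bp from its main TSS, where neither line had one. Cytokine and growth factor receptors had 13 of 36 genes (36.1%, 20.8 to 53.8), with 7 at the main TSS. IL6ST, the signalling chain of the interleukin-6 receptor, had a peak of 971 bp that was 91114 bp from any U937 peak, and EPOR one of 358 bp. CSF1R, the receptor that macrophages depend on, had an internal peak of 671 bp in an intron, 26574 bp from its main TSS.

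The classical inflammatory cytokines had narrow peaks. Cytokines and chemokines had 11 of 38 genes (28.9%, 15.4 to 45.9) with an MV4-11-only peak, 8 at the main TSS. Of these 8, 7 had no U937 promoter peak. The peaks at TNF, IL1B and IL6 were 353, 372 and 325 bp wide, all under 400 bp. IL23A, a subunit of interleukin-23, had one of 737 bp centred 1 bp after its TSS. With the 400 bp minimum, 8 genes of the list were left. Pattern recognition receptors and adaptors had 7 of 34 genes (20.6%, 8.70 to 37.9). TLR5 and TLR9, receptors for flagellin and unmethylated DNA, had peaks of 1093 and 1072 bp centred 394 and 533 bp before the TSS. CD14, the coreceptor for lipopolysaccharide, had one of 415 bp and TICAM1, an adaptor of TLR3 and TLR4, one of 400 bp.

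Interferon-stimulated genes had 12 of 47 members (25.5%, 13.9 to 40.3), with 8 at the main TSS and 5 of these without a U937 promoter peak. IFITM1 and IFITM3, membrane proteins that block viral entry, had peaks of 1480 and 1772 bp on chromosome 11. OAS2 and OASL, of the oligoadenylate synthetase family, had peaks of 463 and 768 bp. The NF-kB pathway had 8 of 33 genes (24.2%, 11.1 to 42.3) but 3 at the main TSS, RELA (556 bp), TRAF2 (1750 bp) and TRAF3 (677 bp). RELA is an NF-kB subunit, and its peak was centred 959 bp into the gene, where U937 had a promoter peak 988 bp away. NFKB2, NFKBIE and NFKBIZ had internal peaks of 298, 604 and 293 bp with a shared peak at the main TSS.

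Adhesion and migration genes had both kinds of peak. Integrins and adhesion genes had 12 of 36 (33.3%, 18.6 to 51.0), 7 at the main TSS. ITGAL, the leukocyte integrin subunit of LFA-1, had a peak of 1904 bp centred 823 bp into the gene. ITGA2B, a platelet integrin, had one of 626 bp, ITGA6 one of 439 bp and ITGB3 one of 394 bp. ITGB2, the partner of ITGAL, had an internal peak of 529 bp and a shared peak at its main TSS. Chemoattractant receptors had 7 of 38 (18.4%, 7.74 to 34.3), 6 at the main TSS, none of which had a U937 promoter peak. CCR1 and CCR2, receptors of monocyte chemokines, had peaks of 539 and 319 bp, CXCR3 one of 1233 bp and ACKR3 one of 372 bp.

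Signalling and survival genes varied. JAK, STAT and SOCS genes had 7 of 28 (25%, 10.7 to 44.9), 5 at the main TSS. STAT5B, a transducer of cytokine signals, had a peak of 1476 bp centred 491 bp before its TSS, and STAT5A, its neighbour, had an internal peak of 741 bp with a U937 peak 101 bp away. PTPN1, a phosphatase of JAK kinases, had a pair of peaks (662 and 387 bp), and the nearest U937 peak was 53119 bp away. SOCS6 and PIAS4 had peaks of 608 and 685 bp. RAS and MAPK genes had 7 of 38 (18.4%, 7.74 to 34.3), among them DUSP2, a MAPK phosphatase, with a peak of 2003 bp, and MAPK8 with one of 945 bp. NF1, which inactivates RAS, had one of 556 bp that was 298 bp from a U937 peak. The BCL2 family and apoptosis list had 7 of 35 (20%, 8.44 to 36.9). BIK and BCL2L2 had peaks of 860 and 691 bp at the main TSS. BCL2, the target of venetoclax, had internal peaks of 463 and 644 bp, 157864 and 1541 bp from a main TSS with a shared peak. Cyclins, CDKs and inhibitors had 2 of 38 (5.26%, 0.644 to 17.7), CCND2 and CDK4, both internal only.

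Corepressor and chromatin complex genes, which include the known partners of ZNF217, had 11 of 38 genes (28.9%, 15.4 to 45.9) but 5 at the main TSS (13.2%, 4.41 to 28.1). All 38 genes had an MV4-11 promoter peak. Besides RCOR2, GSE1 had a peak of 611 bp at the main TSS, and TET1 and TET2, enzymes that oxidise methylcytosine, had peaks of 464 and 553 bp. CTBP1 had a pair of internal peaks (495 and 573 bp) beside a shared peak at its main TSS. CTBP2 had internal peaks of 677 and 2003 bp, 130910 and 132610 bp from its main TSS, and U937 had no promoter peak at the gene. ZNF217 itself had an internal peak of 287 bp, 15900 bp from its main TSS, where the peak was shared. The U937 peak nearest to that internal peak was 669 bp away.

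Markers of other cell types had shares from 5.71% (neuron) to 21.9% (B cell). T and NK cell markers had 3 of 36 genes with an MV4-11-only peak (8.33%, 1.75 to 22.5), erythroid and megakaryocyte markers 3 of 36, neuron markers 2 of 35, hepatocyte markers 4 of 35 and epithelial markers 5 of 33 (15.2%, 5.11 to 31.9). The B cell list had 7 of 32 (9.28 to 40), with CD22 (616 bp), CD40 (303 bp) and CD72, an inhibitory receptor with a peak of 2801 bp, among those at the main TSS. Of the genes named, CD22 alone had a U937 promoter peak. BCL11B, a T cell factor, had a peak of 402 bp and KRT8, a keratin, one of 1673 bp.

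Genes that every cell uses had MV4-11 promoter peaks at 92% to 98.8% of the genes of each list below, and their shares with an MV4-11-only peak at the main TSS ran from 2.08% (proteasome) to 15.9% (histones), on both sides of the 10.2% of all genes. The cytosolic ribosomal proteins had 11 of 84 (13.1%, 6.72 to 22.2), but 2 at the main TSS (2.38%, 0.290 to 8.34). RPLP0, RPL36 and RPS16, among the others, had internal peaks up to 1069 bp wide beside a shared peak at the main TSS. Mitochondrial ribosomal proteins had 4 of 78 (5.13%, 1.41 to 12.6), 3 of them at the main TSS, and proteasome subunits 1 of 48 (PSMC1, 550 bp). Respiratory chain subunits had 9 of 87 (10.3%, 4.84 to 18.7), of which 8 (9.20%, 4.05 to 17.3), NDUFA6 and NDUFA10 among them, were at the main TSS. Of these 8, 7 had no U937 promoter peak. Replication-dependent histones had 10 of 63 (15.9%, 7.88 to 27.3), all at the main TSS, with peaks of 1807 bp at H4C3 and 1761 bp at H3C12.

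Among larger families, zinc finger genes of chromosome 19 had 40 of 258 (15.5%, 11.3 to 20.5), 33 of them at the main TSS (12.8%, 8.97 to 17.5). ZNF175, ZNF555 and ZNF561 had the widest, at 1572, 1383 and 1271 bp. Zinc finger genes of other chromosomes had 52 of 290 (17.9%, 13.7 to 22.8), TRIM genes 14 of 73 (19.2%, 10.9 to 30.1), solute carriers 48 of 379 (12.7%, 9.49 to 16.4), ion channels 22 of 141 (15.6%, 10 to 22.7) and RAB GTPases 8 of 63 (12.7%, 5.65 to 23.5). Olfactory receptors had 2 of 390 (0.513%, 0.0622 to 1.84) and clustered protocadherins 1 of 53 (PCDHGC3, 689 bp).

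**Figure D3:**
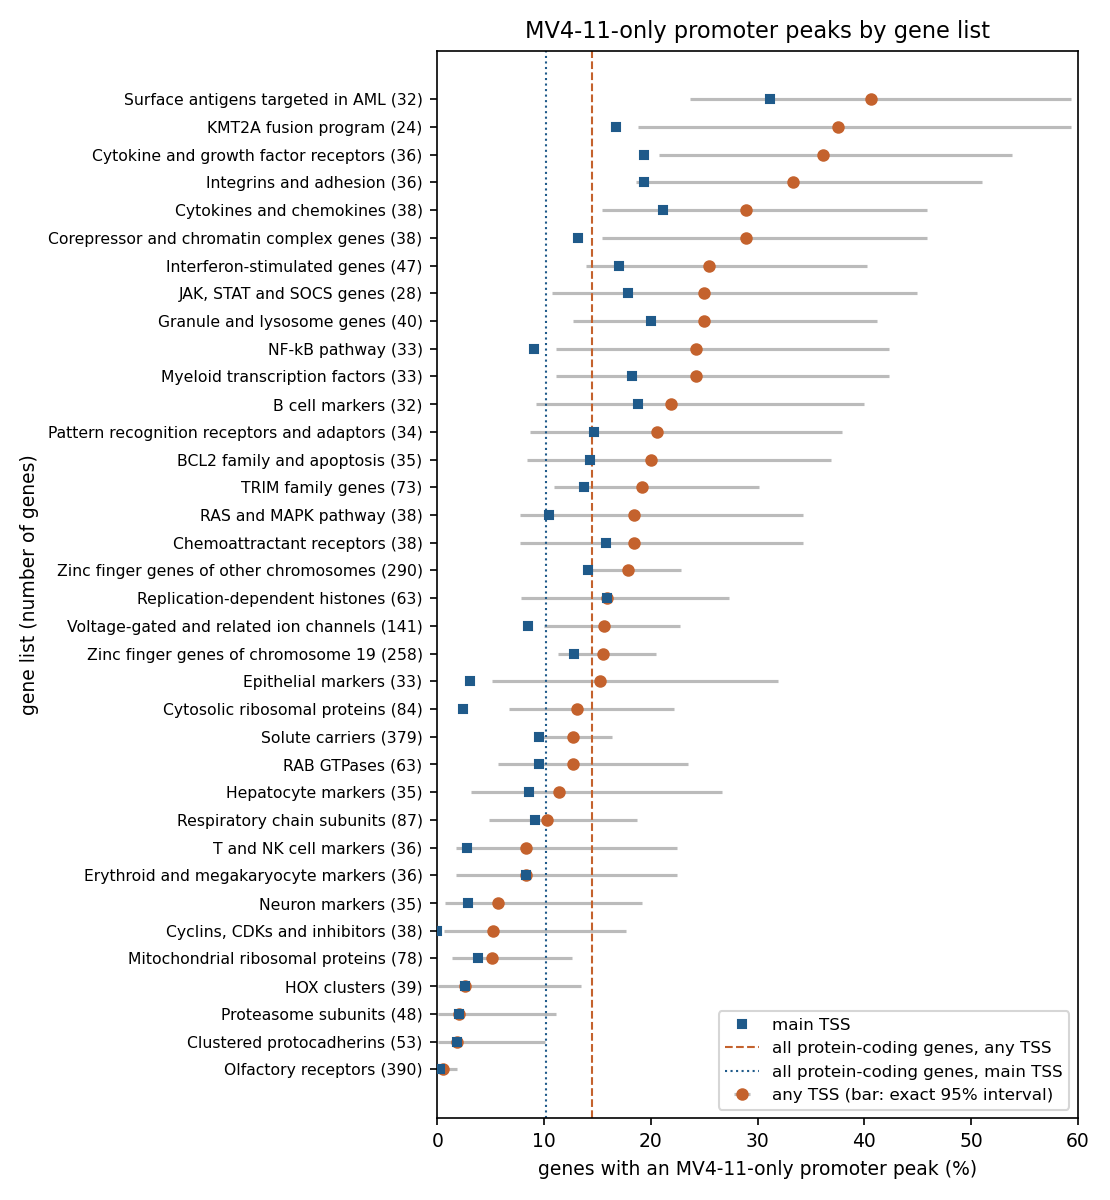
Share of the genes of each list shown with an MV4-11-only promoter peak (percent, x axis) at any TSS (circles, with exact 95% intervals) and at the main TSS (squares), with list sizes in parentheses. The lines at 14.5% and 10.2% are the shares of all protein-coding genes. Surface antigens targeted in AML are at the top with 40.6%, and olfactory receptors at the bottom with 0.513%.

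In 60 genes 3 or more MV4-11-only peaks were found. PODNL1, OSBPL5 and LSP1 had 5 each. LSP1 encodes an actin-binding protein of leukocytes, and its peaks were 397, 298, 306, 521 and 457 bp wide, the first at the main TSS and 9 bp from a U937 peak. OSBPL5, a lipid transfer protein, had its widest peak (1804 bp) at the main TSS and 4 others at internal ones. KMT2B and KMT2D, histone methyltransferases related to KMT2A, had 4 each, all internal and between 353 and 693 bp. PLXNB2, a semaphorin receptor, had a peak of 2757 bp at the main TSS and 3 internal ones, and TRAF2 had 3 internal peaks besides that at its main TSS. U937 had no promoter peak at PLXNB2 or TRAF2.

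The rule did not use sequence, which differed between MV4-11-only and shared peaks. The central 300 bp of a peak was called CpG-rich when at least 50% of bases were G or C and the observed to expected CpG ratio was at least 0.6. At main TSSs, 62.6% (60.5 to 64.7) of MV4-11-only peaks had a CpG-rich centre, against 84.5% (83.5 to 85.3) of shared peaks, a difference of -21.8 points (Newcombe 95% interval -24.1 to -19.6). The 564 U937-only peaks at main TSSs were at 65.2% (61.2 to 69.1). At internal TSSs the shares were 19.5% (17.4 to 21.9), 40.3% (37.0 to 43.7) and 19.9% (15.8 to 24.8). The MV4-11-only share minus the U937-only share was -2.62 points (-6.98 to 1.90) at main and -0.415 points (-5.74 to 4.32) at internal TSSs, so no difference was detectable with these numbers of peaks. Among shared peaks a larger share sat close to the TSS, so the difference was also read in fixed windows from 250 bp before to 50 bp after the main TSS. Of 1877 genes with an MV4-11-only and no shared peak at the main TSS, 74.1% had a CpG-rich window, against 89.9% of 6022 genes with a shared one only (difference -15.7, -17.9 to -13.7) and 65.8% (65.2 to 66.5) of all 19625 main TSSs. Among peaks centred within 100 bp of the main TSS it was 80.8% against 93.8% (-12.9, -16.5 to -9.75).

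The CpG difference was present in every width class. Among main-TSS peaks of 1000 bp or more, 9% (8.06 to 10) of 3232 CpG-rich peaks and 18.7% (16.0 to 21.7) of 721 others had no U937 peak. Below 400 bp the values were 56.7% (51.6 to 61.7) of 372 and 81.8% (76.8 to 85.9) of 275. FLT3, CEBPA, KLF2, IKZF2 and JMJD1C were on the CpG-rich side, with GC contents of 75.3%, 80.3%, 76.7%, 79.7% and 68.3%. TNF, IL1B, MPO and TLR9 were on the other side.

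Of 21 consensus words searched in the peak centres, 7 had an interval of the difference that excluded 0 at main TSSs, with no adjustment over words. The ETS word CCGGAAGT, bound by ETS factors at many housekeeping promoters, was in 3.05% of MV4-11-only and 5.94% of shared peaks (-2.89, -3.79 to -1.89) and in 6.12% of all main-TSS windows. The YY1 word AAGATGGC was in 2.52% against 4.64% (-2.12, -2.93 to -1.20) and in 4.07% of all windows. Both remained lower among CpG-rich centres alone (4.26% against 6.60%, and 3.10% against 5.21%) and in the fixed TSS windows (4.58% against 10.1%, and 3.09% against 6.84%). The SP word was in 58.3% against 69.5% (-11.2, -13.6 to -8.80), but among CpG-rich centres in 77.1% against 75.4% (1.64, -0.991 to 4.15), and in CpG-rich fixed windows it was higher in the MV4-11-only genes, 86.6% against 81.1% (5.55, 3.40 to 7.55).

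Words of blood cell factors gave mixed results, with RUNX higher in MV4-11-only centres but not in every reading. The RUNX word TGTGGTT was in 3.59% of MV4-11-only and 2.34% of shared peaks at main TSSs (1.25, 0.424 to 2.21) and in 7.14% against 4.56% at internal TSSs (2.59, 0.463 to 4.60). It was in 3.35% of all windows. In the fixed TSS windows the interval included 0, with 3.30% against 2.72% (0.580, -0.263 to 1.57), as it did for peaks centred within 100 bp of the main TSS (0.180, -0.981 to 1.81). In CpG-rich centres it was in 1.86% against 1.98% (-0.126, -0.861 to 0.829), and in the other centres 6.49% against 4.25% (2.24, 0.117 to 4.49). For PU.1 the shares at main TSSs were 2.18% and 2.59% (-0.413, -1.11 to 0.400), and for the C/EBP word TTGCNNCAA 0.921% and 0.870% (0.0510, -0.372 to 0.603), which is in 1.61% of all windows. In CpG-rich centres alone the GATA word (-1.01, -1.68 to -0.145), the IRF word (-0.904, -1.45 to -0.163) and the E-box (-1.74, -3.21 to -0.0633) were lower. Over all main-TSS centres the intervals of all 3 included 0. In the fixed TSS windows the E-box was also lower, at 8.84% against 11.6% (-2.76, -4.23 to -1.18). TGCAGAA, a word close to the known ZNF217 motif, was in 3.83% and 3.06% (0.768, -0.107 to 1.77), and in 4.40% of all windows. The MEIS word TGACAG (13.6% against 11.6%), TATAAA (3.39% against 2.51%) and the NRF1 word (0.969% against 1.61%) were the others of the 7, and among CpG-rich centres alone the intervals of all 3 included 0. The NRF1 word was also lower in the fixed TSS windows, at 1.44% against 2.91% (-1.47, -2.11 to -0.710), and in the CpG-rich ones, at 1.87% against 3.23% (-1.36, -2.14 to -0.403). TATAAA was also higher in the fixed TSS windows, at 6.29% against 4.50% (1.79, 0.634 to 3.08). In the CpG-rich ones its interval included 0 (-0.0832, -1.09 to 1.12). At internal TSSs it was lower, at 3.24% against 5.79% (-2.55, -4.57 to -0.726).

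**Figure D4:**
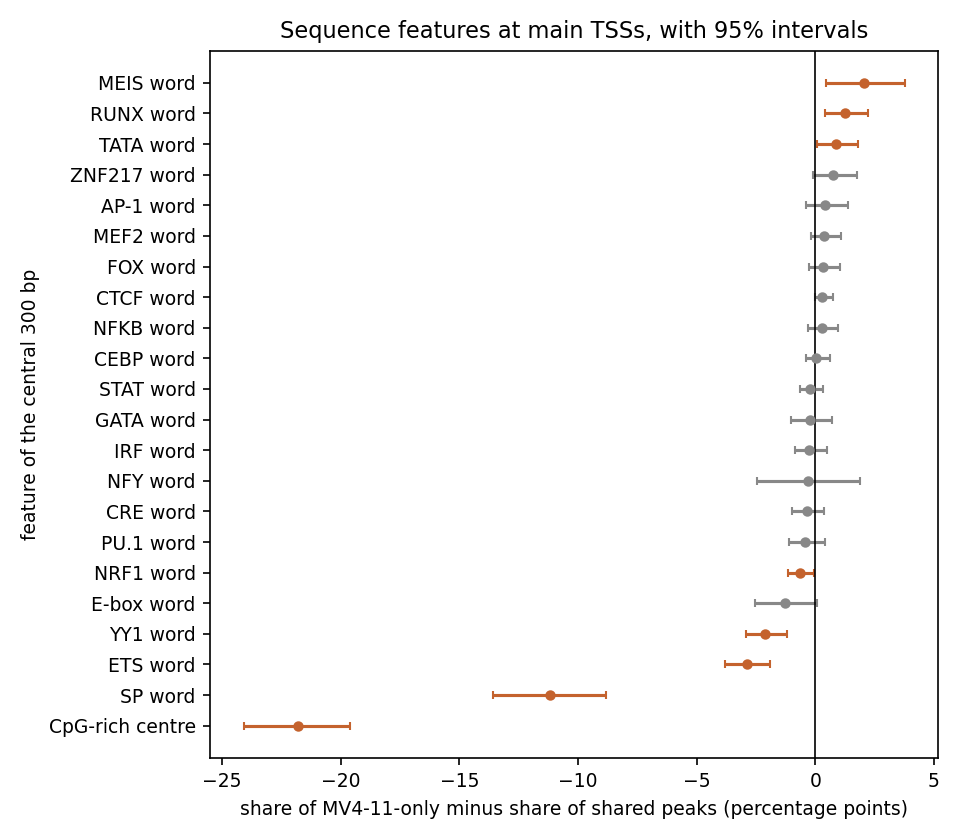
Difference between MV4-11-only and shared peaks at main TSSs in the share with each feature of the central 300 bp (percentage points, x axis), for a CpG-rich centre and 21 consensus words (y axis). Points are differences, whiskers Newcombe 95% intervals, and orange marks intervals that exclude 0. A CpG-rich centre is the farthest from 0, at -21.8 points.

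MV4-11-only peaks were unevenly spread over chromosomes. They were 44.8% (41.7 to 47.8) of the 1012 MV4-11 single-promoter peaks of chromosome 19, the highest share, and 18.8% (13.6 to 25.4) of the 165 of chromosome 13, the lowest. Chromosomes 17 (38.6%, 35.0 to 42.3), 11 (37.9%, 34.2 to 41.8) and 22 (37.5%, 32.3 to 43.1) followed, and the intervals of these 4 overlapped. Chromosomes 4 (22.8%, 18.4 to 28.0) and 18 (23.1%, 16.8 to 31.0) had intervals that overlapped that of chromosome 13. In U937 the share of single-promoter peaks that MV4-11 lacked was 10.6% (8.44 to 13.2) on chromosome 19 and 6.67% (4.76 to 9.26) on chromosome 17. Copy number differences between the lines were not measured here, and their part was not tested.

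**Figure D5:**
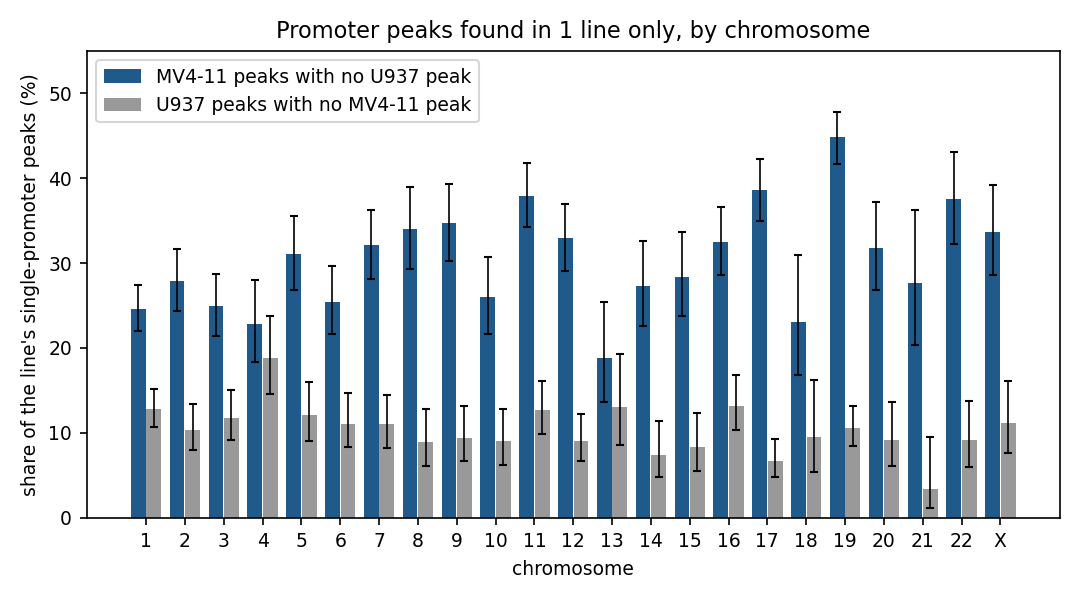
Share of single-promoter peaks found in 1 line only (percent, y axis) by chromosome (x axis), for MV4-11 (blue) and U937 (grey), with Wilson 95% intervals. The MV4-11 share is highest on chromosome 19 (44.8%) and lowest on chromosome 13 (18.8%).

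The peaks were also found more often near chromosome ends. At main TSSs 18.7% (17.0 to 20.4) of MV4-11-only peaks lay within 5 Mb of an end, against 12.5% (11.7 to 13.3) of shared peaks (6.16, 4.33 to 8.07) and 8.33% (6.32 to 10.9) of U937-only peaks (10.3, 7.29 to 13.0). Without chromosome 19 the values were 17.2% against 11.5% for shared peaks (5.74, 3.88 to 7.71). The difference from shared peaks was 4.2 points (2.07 to 6.50) for CpG-rich centres and 8.91 points (5.31 to 12.6) for the others. At internal TSSs 25.1% (22.7 to 27.6) of MV4-11-only and 20.1% (17.5 to 23) of shared peaks were that close (5.01, 1.27 to 8.64). AZU1, PRTN3, ELANE, IFITM1 and IFITM3 were among the genes in these regions.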

How the data were processed

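Per the labels, MV4-11 and U937 each had 1 ZNF217 and 1 IgG CUT&Tag library. Only the ZNF217 peak lists were used. The authors aligned reads to hg38 with Bowtie2 2.4.4 and called peaks in each library with MACS3 3.0, as named in the submitters' processing notes, at a q threshold of 0.01 per the study's methods. Use of the IgG library as control, duplicate removal and blacklisting were not given in the sources used here. The deposited values were of another unit than signal, namely chromosome, start and end of each peak, so depth was unknown. All peaks fitted the reference chromosomes (0 beyond an end).

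TSSs were those of protein-coding transcripts in GENCODE 44. Overlaps, CpG content and words were computed with Python 3.11.15, pandas 2.3.3, NumPy 2.4.6, SciPy 1.17.1 and pysam 0.24.0, and figures with Matplotlib 3.10.9. Starts were read as counted from 0. The classification was tested on simulated data. Shares have Wilson, list shares exact and differences Newcombe 95% intervals, with no p-value. An internal peak's main-TSS state was read in the window of 1 kb on each side, without leaving out that peak itself.

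The peak set, the 37 gene lists, the words and the naming rule were chosen with earlier results of these data known. Genes were named by rule: the 10 widest peaks at main and 6 widest at internal TSSs, up to 4 main-TSS and 3 internal-only genes per list in list order (3 by width for lists set by name pattern), genes with 3 or more peaks, and peaks nearest to the limits. Markers of the lines were a list of their own. A few named items that this rule gave, and 1 of the gene lists, are not reported here. Alternatives changed width, overlap, window, TSS set, list length and merging.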

Additional observations from a re-analysis of the deposited data

How the results depend on the processing

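With 1 library per line there were no replicates to leave out, and depth could not be assessed. No paired analysis was possible because each group held 1 library and no test was made. The number of MV4-11-only promoter peaks, 3267, was 5110 with a reciprocal overlap of 50%, 5879 with a 3 kb window and 1860 with as many of the widest MV4-11 peaks as U937 had, and stayed within 1.5 times it under the other 7 alternatives. The following values give in turn the share at a main TSS, the share of single-promoter peaks missing from U937, the share whose gene had no U937 promoter peak and the share with a CpG-rich centre (63.1%, 31.8%, 64.8% and 46.7% as reported). They were 65.1%, 27.0%, 66.9% and 50.7% with MV4-11 peaks of at least 400 bp, and 66.8%, 30.1%, 69.3% and 51.8% with that minimum in both lines. With a reciprocal overlap of 50% they were 69.8%, 49.7%, 41.6% and 54.0%, with a 500 bp window 65.5%, 27.2%, 73.2% and 56.7%, and with a 3 kb window 69.2%, 42.8%, 44.8% and 28.6%. With any transcript of a protein-coding gene they were 44.5%, 38.1%, 49.3% and 35.6%, with GENCODE basic transcripts 77.1%, 28.4%, 75.3% and 54.4%, and with as many of the widest peaks as in U937 68.0%, 22.8%, 69.0% and 54.1%. When a U937 peak within 500 bp counted as shared, the share missing from U937 and the share whose gene had no U937 promoter peak were 29.6% and 69.3%, and with peaks less than 500 bp apart merged 29.8% and 69.4%, the others staying inside the reported intervals. The share at a main TSS was 59.2% with the most 5′ TSS as main and 65.5% when TSSs within 500 bp of the canonical one counted. The share whose gene had no U937 promoter peak was 43.5% when the gene body and 5 kb upstream were searched. A CpG-rich centre was met by 41.7% with a GC content of at least 55% and a ratio of at least 0.65. The cause of these shifts was not tested.

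The differences between MV4-11-only and shared peaks were recomputed under the same 10 alternatives, a step chosen after seeing the data. At main TSSs the CpG-rich difference ranged from -41.0 to -15.5 points, the ETS word from -3.52 to -2.32, the YY1 word from -2.59 to -1.58 and the chromosome-end difference from 5.41 to 8.81, with every interval excluding 0. The RUNX word kept its direction, but its interval included 0 under 1 alternative at main TSSs (0.856 points, with the widest peaks) and under 5 at internal TSSs. The TGCAGAA word at main TSSs ranged from 0.518 to 2.28 points, and its interval excluded 0 under 4 of the 10. At internal TSSs the chromosome-end difference ranged from 3.55 to 6.80 points. Its interval included 0 under 1 of the 10, with GENCODE basic transcripts. Of the 37 gene lists, 5 fell below the Wilson interval of their reported share with the 400 bp minimum and 12 with main TSSs only. Some of these stayed inside the exact interval printed above. Interferon-stimulated genes, for example, were at 14.9% with the 400 bp minimum, against an exact interval of 13.9 to 40.3.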

Other observations

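Promoter peaks found in MV4-11 only and in U937 only were also set side by side at main TSSs, where 2063 and 564 were available. Of the 21 words, 6 had an interval of the difference that excluded 0, with no adjustment over words. The GATA word AGATAA was in 3.01% of MV4-11-only and 6.38% of U937-only centres (-3.38 points, -5.79 to -1.45). It was in 7.10% of all main-TSS windows, which are fixed on the TSS and so are not the same positions as peak centres. The AP-1 word was in 3.44% and 5.85% (-2.41, -4.77 to -0.537), and the TGCAGAA word in 3.83% and 5.85% (-2.02, -4.39 to -0.130). In the other direction, the NF-Y word CCAAT was in 25.6% and 18.1% (7.56, 3.70 to 11.1), the E-box in 6.93% and 4.26% (2.68, 0.434 to 4.49) and the cyclic AMP response word TGACGTCA in 1.65% and 0.177% (1.47, 0.527 to 2.13). The ETS and YY1 words, which were lower than in shared peaks, were in 1.77% and 2.13% of U937-only centres. The TGACGTCA share in U937-only peaks rested on 1 of 564. For these 2 groups words were read in peak centres only, not in fixed TSS windows. Midpoints lay downstream of the TSS for 49.4% of MV4-11-only and 59.0% of U937-only peaks at main TSSs. The part of this position in the word differences was not tested.

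At internal TSSs, 8 of the 21 words had an interval of the difference from shared peaks that excluded 0, with no adjustment over words. The SP word differed most, at 30.5% against 42.9% (-12.4 points, -16.6 to -8.09). The AP-1 word was in 6.98% of MV4-11-only and 10.2% of shared peaks there (-3.24 points, -5.87 to -0.774), a lower share that was not seen at main TSSs (0.429, -0.410 to 1.39). Whether the difference itself varied with the kind of TSS was not tested. At divergent promoters, which the definition leaves out, 155 of 1334 MV4-11 peaks had no U937 peak.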
